A study of Macaca mulatta with 2 samples.

Results

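The heat shock protein and chaperone genes are described here in spatial transcriptomes of the uninjected macaque posterior eye. Members were taken by a rule on symbols, which was set with earlier results of these data known. It takes genes whose symbol starts with HSPA, HSPB, HSPD, HSPE, HSPH, HSP90, DNAJA, DNAJB or DNAJC, or with CCT and a digit. That rule found 76 genes among the 26533 features of the reference. They were 10 HSPA, 9 HSPB, 2 HSPD and HSPE, 1 HSPH, 3 HSP90, 4 DNAJA, 11 DNAJB, 27 DNAJC and 9 CCT genes. The inducible genes HSPA1A, HSPA1B and HSPA6 were not among the symbols of the feature list and were not analysed here. The same reference table that names unnamed features calls 1 further expressed feature HSPE1 (189 UMIs in NHP1 and 131 in NHP2) and another DNAJC14 (169 and 99), which the rule on symbols leaves out, so the level of HSPE1 may be split over near-identical copies.

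The data were Visium libraries, in which RNA from a tissue section is captured by its poly-A tail on an array of barcoded spots and counted as unique molecular identifiers (UMIs). A spot covers a small area that can hold several cells of different types. There were 2 sections of 10 µm, 1 from each of 2 male wild-type rhesus macaques, cut from 4 mm punches through retina, choroid and sclera of the right eye outside the injected blebs. NHP1 was 5 years old and had received the AAV2-CAG-hRPE65 vector elsewhere in both eyes, and NHP2 was 6 years old and had received AAV8-GRK1-hRPGR and AAV8-GRK1-mScarlet in separate blebs. Tissue was taken 12 weeks after injection. Both right eyes had also undergone vitrectomy and a subtenon triamcinolone injection, a steroid, so that neither section is from an eye without surgery. Adalimumab was given to the left eyes only. Animal, vector, library and depth differ together between the sections and cannot be told apart. The labels call the tissue fresh frozen in one field and fixed in PFA in another.

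Chaperones bind unfolded or newly made proteins and help them reach or keep their folded state. HSP70 proteins (HSPA) take up exposed stretches of client proteins with the help of J-domain proteins (DNAJ), which bring the clients and start the HSP70 cycle, and of HSPH proteins, which exchange its nucleotide. HSP90 acts later on clients such as kinases and receptors, small heat shock proteins (HSPB) hold unfolding proteins without using ATP, HSPD1 and HSPE1 form the chaperonin of mitochondria, and the CCT subunits form the cytosolic chaperonin that folds actin and tubulin. Photoreceptors renew their outer segments throughout life, and part of this machinery is known for its role in rod and cone protein folding. Many of these genes can be induced through heat shock elements, repeats of the letters GAA in alternating direction that bind the heat shock factor HSF1.

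Promoters were searched for 1 form of that element, GAANNTTCNNGAA on either strand, where N is any base, within 250 bases before and 50 bases after the RefSeq gene start in Mmul_10. It was found in 5 of the 75 members that matched the annotation (6.667%), against 80 of 20787 protein-coding genes (0.3849%). The form spans 13 letters, and no other motif was searched. Members that hold it were HSPA8, HSP90AA1, DNAJB6, DNAJB5 and HSPB7. A match describes letters only, and a gene without one may hold another form or use another start. The promoters of HSPA8 and HSP90AA1 are shown because these 2 genes had the most UMIs of all members, and that of DNAJB6 because it is the other member with a match among the 20 with the most UMIs. Each is written 5′ to 3′ on the strand of its gene, with the matching letters in capitals. HSPA8 held 2 matches, which begin 227 and 52 bases before the start, in chr14:116039065-116039305 on the minus strand. The HSP90AA1 match begins 88 bases before the start, in chr7:164313716-164313788 on the minus strand, and the DNAJB6 match 98 bases before it, in chr3:183347065-183347137 on the plus strand.
HSPA8: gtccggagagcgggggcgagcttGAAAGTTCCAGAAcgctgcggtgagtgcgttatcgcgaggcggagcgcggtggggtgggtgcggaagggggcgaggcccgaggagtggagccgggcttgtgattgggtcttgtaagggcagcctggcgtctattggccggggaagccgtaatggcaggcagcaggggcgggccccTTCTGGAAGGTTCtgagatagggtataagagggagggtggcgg
HSP90AA1: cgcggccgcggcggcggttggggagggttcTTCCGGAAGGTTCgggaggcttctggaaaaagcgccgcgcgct
DNAJB6: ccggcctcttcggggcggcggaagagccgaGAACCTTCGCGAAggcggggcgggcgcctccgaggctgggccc
The matches in DNAJB5 (chr15:49238606-49238678, minus strand) and HSPB7 (chr1:208756505-208756577, plus strand) belong to genes with few UMIs, 30 and 19 for DNAJB5 and 0 and 1 for HSPB7 in NHP1 and NHP2. The gene for the constitutive cytosolic HSP90, HSP90AB1, held no match in its window.

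Over tissue, NHP1 had 1484784 UMIs in 534 spots and NHP2 had 805726 UMIs in 470 spots, with medians of 1473.5 and 370.5 UMIs per spot. Spots were grouped by the expression of all genes other than the members and the folding genes listed with them, and groups were named from layer markers. In NHP1 these were a photoreceptor layer-like region (96 spots), an inner retina-like region (179), RPE-like spots (67), choroid-like spots (70) and sclera-like spots (122). In NHP2 they were an inner retina-like region (32), RPE-like spots, choroid-like spots (23) and sclera-like spots (234). The RPE is the pigment epithelium behind the photoreceptors. After the data were seen, RPE-like spots were kept apart by whether their group held at least 10 photoreceptor markers, which was so for all 67 in NHP1 and for 38 in NHP2. These groups held 21 photoreceptor and 9 RPE markers in NHP1, and 20 and 11 in NHP2. No group of NHP2 was named photoreceptor layer-like, and its photoreceptor transcripts were highest in those 38 spots. The marker list stood there at 334.6 UMIs per 10000 UMIs. In NHP1 it stood at 304.7 in the photoreceptor layer-like region and 316.1 in the RPE-like spots. The other 139 RPE-like spots of NHP2 had a median of 17 UMIs. The choroid-like spots of NHP2 held 6674 UMIs in all, so neither group can bear a comparison of single genes. In NHP1 RPE transcripts were not highest in the RPE-like spots: the RPE marker list stood at 163.3 per 10000 there and at 349 in the choroid-like spots, where TTR (151.5 against 74.18), CST3 (109.1 against 37.23) and PMEL (33.24 against 1.534) carried most of the difference, while RGR was at 16.4 against 15.76 and ENPP2 and SLC39A12 were lower (3.144 against 7.111 and 1.497 against 2.928). In NHP2 the list stood at 354.5 in the other RPE-like spots, 277.2 in the choroid-like spots, 234.3 in the RPE-like spots with photoreceptor markers and 147.2 in the sclera-like spots. Neural retina-like means the inner retina-like and photoreceptor layer-like spots together. In NHP2 it is the inner retina-like spots alone, so the neural over sclera-like ratios of NHP1 and NHP2 cover unlike tissue.

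**Figure D1:**
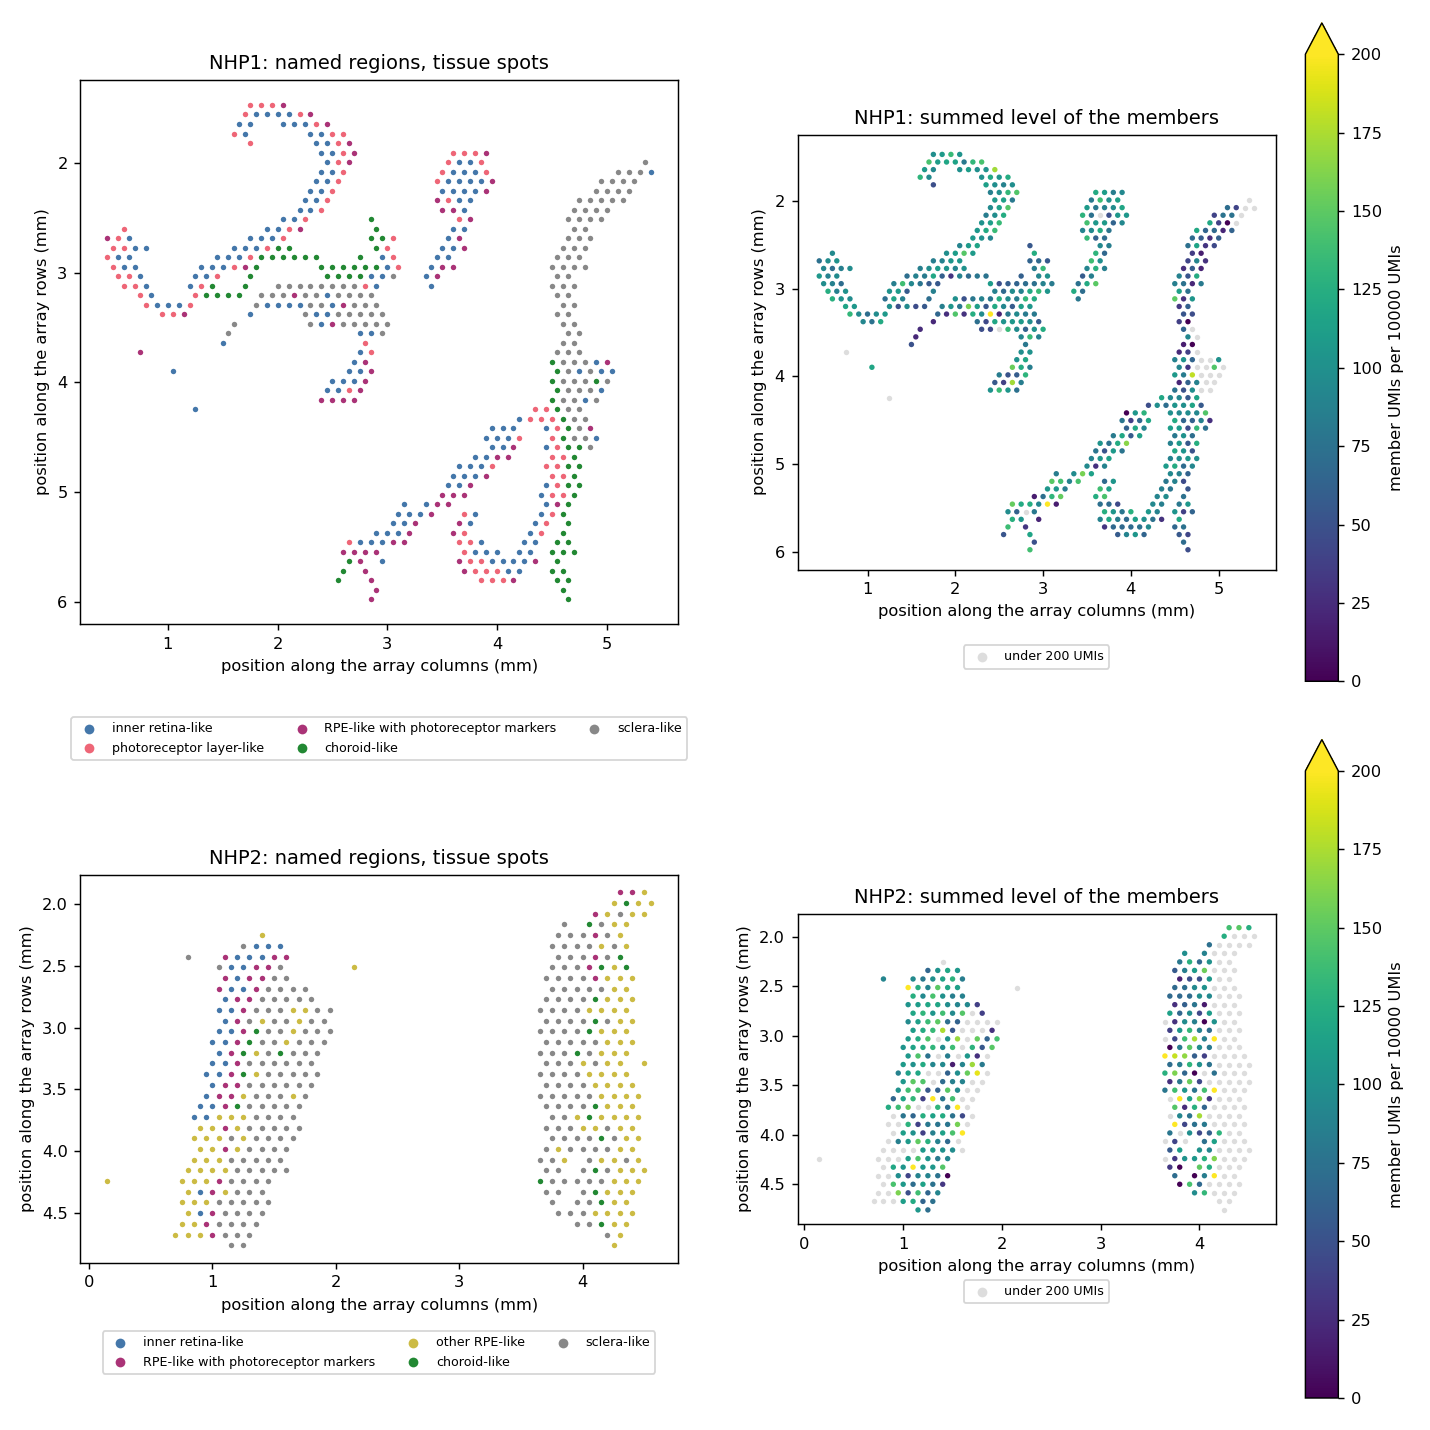
Tissue spots of both sections at their array positions in mm, coloured on the left by named region and on the right by the summed level of the 76 members in UMIs per 10000 UMIs, with spots under 200 UMIs in grey. The summed level varied from spot to spot within every region, and the region medians in NHP1 run from 73.23 in sclera-like to 103.2 in photoreceptor layer-like spots.

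The members together took 97.49 of every 10000 UMIs over the tissue of NHP1 (exact Poisson 95% interval 95.91 to 99.09) and 110.4 over that of NHP2 (108.1 to 112.7). In NHP1 the level was 106.2 in the photoreceptor layer-like region, 98.31 in the inner retina-like region, 100.7 in the RPE-like spots with photoreceptor markers, 77.71 in the choroid-like and 78.16 in the sclera-like spots. In NHP2 it was 109.4 in the inner retina-like region, 128.7 in the RPE-like spots with photoreceptor markers and 93.53 in the sclera-like spots. Both sections thus had more chaperone transcript per UMI in the retina and its border with the RPE than in the sclera-like tissue. The ratio of neural retina-like to sclera-like spots was 1.295 in NHP1 (conditional binomial 95% interval 1.204 to 1.393) and 1.17 in NHP2 (1.106 to 1.239), and HSPA8, HSP90AA1 and HSP90AB1 weigh most in these sums. The sclera-like spots also held photoreceptor transcripts. That marker list stood at 99.86 per 10000 in those of NHP1, against 86.99 in its inner retina-like region, and at 28.68 in those of NHP2, against 79.46. The part of this in the neural over sclera-like ratios was not tested. The median of single-gene ratios was 1.31 over the 44 members with at least 50 UMIs in NHP1 and 1.624 over 31 in NHP2, beside 1.316 and 1.428 over all such genes. All intervals cover counting error only. There was 1 section per animal and the spots of a section share its library, so ratios carry counting intervals and no p-value. Among spots with at least 200 UMIs, the level per spot, from the lower to the upper quartile, ran from 79.76 to 109.4 in the inner retina-like region of NHP1 and from 100.7 to 118.2 in that of NHP2. In the sclera-like spots it ran from 47.39 to 96.01 and from 67.61 to 126.3.

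Of the 76 members, 71 had at least 1 UMI in a tissue spot and 53 had at least 50 over both sections, which is 69.74% of members against 25.27% of all features. The other 18 detected members had 1 to 49 UMIs. HSPA13, DNAJC5B, DNAJC5G, DNAJC22 and CCT8L2 had 0 UMIs, which at this depth allows a level of up to 0.0202 per 10000 in NHP1 and 0.03723 in NHP2. The members had 23367 UMIs in all, of which HSPA8, HSP90AA1 and HSP90AB1 held 45.11% and the first 20 genes 77.52%. By family, HSP90 genes took 28.03% of the member UMIs in NHP1 and 30.47% in NHP2, HSPA genes 25.91% and 25.71%, CCT genes 12.7% and 11.47%, and DNAJC genes 11.23% and 10.43%. The HSPB symbols, which by the rule include HSPBP1 and HSPBAP1 that are no small heat shock proteins, took 3.592% and 5.106%. The 2 sections hold different amounts of each region, and within regions the HSPB share was 3.322% and 3.436% in the inner retina-like and 6.624% and 13.05% in the sclera-like spots.

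HSPA8, the constitutive cytosolic HSP70, had 2694 UMIs in NHP1 and 1711 in NHP2. In NHP1 its level was 19.71 per 10000 in the photoreceptor layer-like region, 19.03 in the inner retina-like region, 19.66 in the RPE-like spots with photoreceptor markers, 12.65 in the choroid-like and 11.05 in the sclera-like spots. In NHP2 it was 21.79 in the inner retina-like region, 27.92 in the RPE-like spots with photoreceptor markers and 13.42 in the sclera-like spots. The retinal levels lay above the sclera-like level in both animals, and in NHP1 photoreceptor and inner retina-like levels did not differ beyond counting error (ratio 1.035, 0.9499 to 1.128). The neural over sclera-like ratio was 1.744 in NHP1 (1.441 to 2.13) and 1.624 in NHP2 (1.405 to 1.882). In NHP1 the sclera-like level rests on which piece of tissue is read, at 6.602 in the largest piece (35 UMIs) and 16.02 in the next (76 UMIs), and the ratio was 2.771 in the largest piece and 1.219 without it.

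Of the other HSP70 genes with enough UMIs, HSPA5 and HSPA9 had neural over sclera-like ratios above 1, as HSPA8 did. HSPA4 and HSPA12A lay on opposite sides within the retina of NHP1. HSPA5, the HSP70 of the endoplasmic reticulum (ER), had a level of 2.379 per 10000 in the photoreceptor layer-like, 1.813 in the inner retina-like and 1.195 in the sclera-like spots of NHP1, and of 2.562 in the inner retina-like, 3.049 in the RPE-like spots with photoreceptor markers and 1.382 in the sclera-like spots of NHP2. In the largest piece of NHP1 the order within the retina turned, with HSPA5 at 1.663 in the photoreceptor layer-like (21 UMIs) and 1.898 in the inner retina-like spots (22 UMIs). The HSPA5 neural over sclera-like ratio was 1.69 (0.9493 to 3.316) and 1.853 (1.183 to 3.016). HSPA9, the mitochondrial HSP70, had ratios of 1.647 (0.925 to 3.234) and 2.816 (1.443 to 6.131).
HSPA4, an HSP110-type exchange factor, had 97 UMIs in the photoreceptor layer-like region of NHP1, a level of 2.262 per 10000, and 59 UMIs in the larger inner retina-like region, a level of 0.7864. The ratio of 2.877 (2.06 to 4.047) was the highest of all members tested there. In NHP2 the level was 1.284 in the RPE-like spots with photoreceptor markers (24 UMIs) and 0.9636 in the inner retina-like region (41 UMIs). The counting intervals of these levels overlap (0.8225 to 1.91 and 0.6915 to 1.307).
HSPA12A, a distant HSP70 relative, lay the other way, at 0.4898 in the photoreceptor layer-like region (21 UMIs) and 1.879 in the inner retina-like region (141 UMIs) of NHP1, a ratio of 0.2606 (0.1564 to 0.414), with 0.09833 in the largest piece of tissue. In NHP2 it was 2.35 in the inner retina-like region (100 UMIs), 0.214 in the RPE-like spots with photoreceptor markers (4 UMIs) and 0.6911 in the sclera-like spots (12 UMIs), so of the regions with a photoreceptor, inner retina or sclera name it was highest in the inner retina-like one in both animals. HSPA1L had 2 UMIs in NHP1 and 0 in NHP2.

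HSP90AA1 and HSP90AB1, the inducible and the constitutive cytosolic HSP90, were layered in opposite directions. HSP90AA1 had 2552 UMIs in NHP1 and 1677 in NHP2. Both genes, like HSPA8, have near-identical copies in the genome, and how their reads were divided was not tested. The HSP90AA1 level in NHP1 was 23.53 per 10000 in the photoreceptor layer-like region, 15.5 in the inner retina-like region, 21.19 in the RPE-like spots with photoreceptor markers, 9.059 in the choroid-like and 10.65 in the sclera-like spots. In NHP2 the order was the same, with 33.59 in the RPE-like spots with photoreceptor markers, 18.59 in the inner retina-like region and 12.9 in the sclera-like spots. Both regions rich in photoreceptor markers lay above the inner retina-like and sclera-like levels in each animal that had them.
HSP90AB1 had 1117 and 791 UMIs, and its level in NHP1 was 5.481 in the photoreceptor layer-like region, 8.197 in the inner retina-like region, 4.741 in the RPE-like spots with photoreceptor markers, 8.984 in the choroid-like and 11.25 in the sclera-like spots. In NHP2 it was 6.151 in the RPE-like spots with photoreceptor markers, 8.578 in the inner retina-like region and 16.36 in the sclera-like spots. Here the regions rich in photoreceptor markers had the lowest levels.

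**Figure D2:**
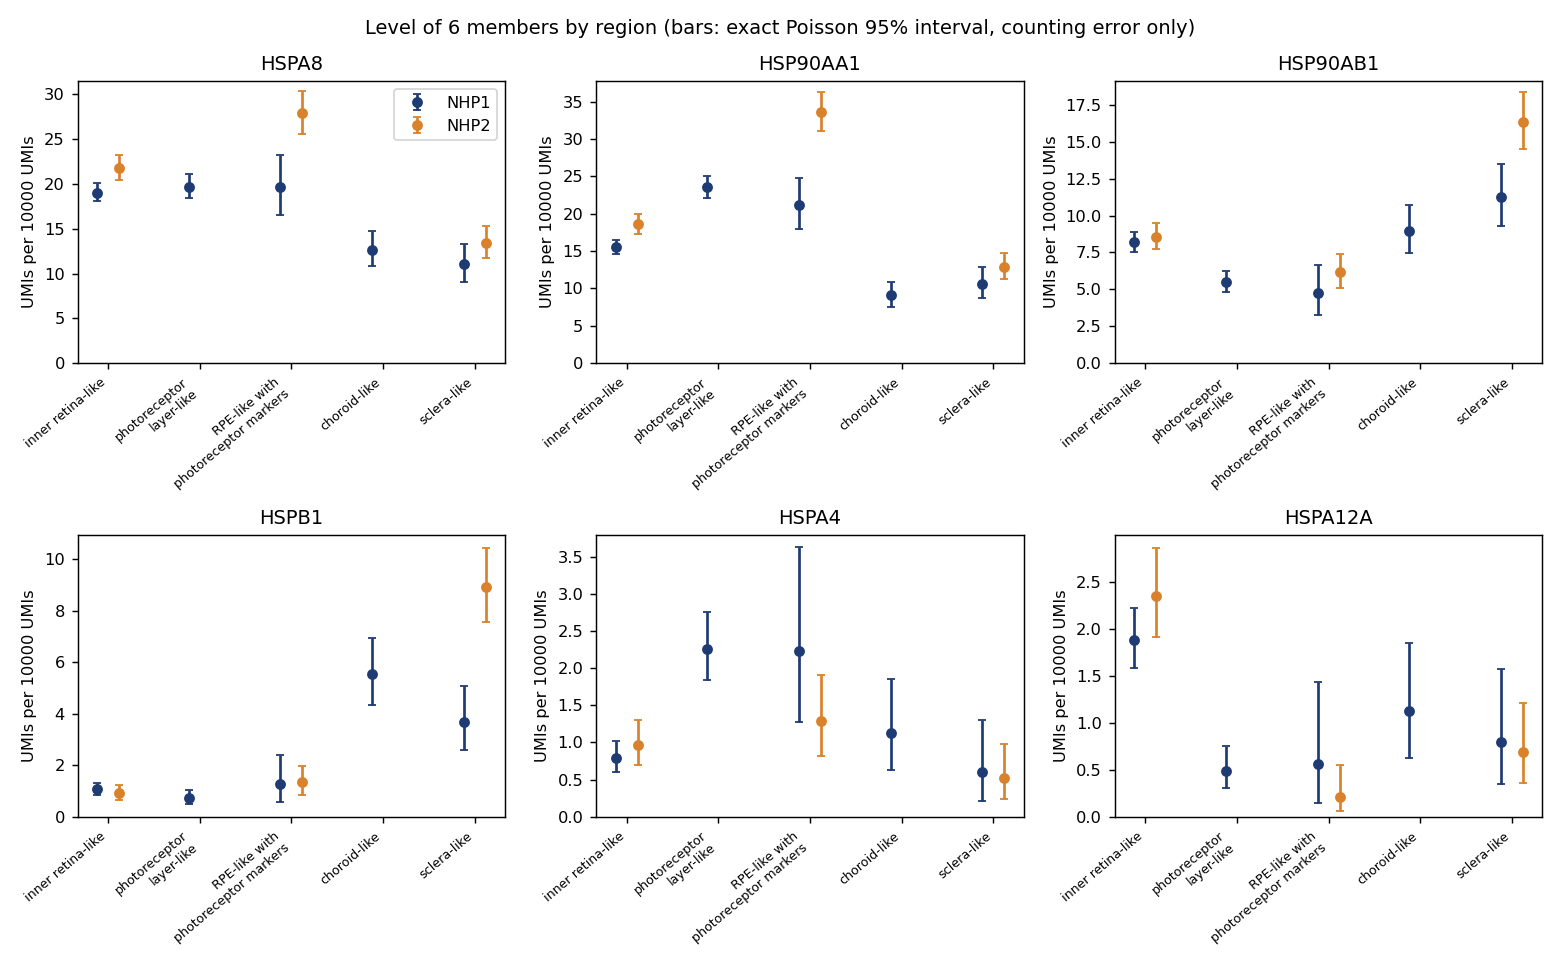
Level of 6 members in UMIs per 10000 UMIs by region, with NHP1 and NHP2 as points and exact Poisson 95% intervals as bars (counting error only). The choroid-like and the other RPE-like spots of NHP2 are left out for their few UMIs, and that section had no photoreceptor layer-like region. HSP90AA1 is lower and HSP90AB1 higher in the sclera-like spots than in the photoreceptor-rich regions. HSPB1 is high in the choroid-like and sclera-like spots only, and HSPA4 and HSPA12A lie on opposite sides within the retina of NHP1. In NHP2 the HSPA4 intervals of the RPE-like spots with photoreceptor markers and the inner retina-like region overlap.

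Photoreceptor layer-like over inner retina-like, the ratio in NHP1 was 1.518 for HSP90AA1 (1.394 to 1.653) and 0.6687 for HSP90AB1 (0.5729 to 0.7784). Neural retina-like over sclera-like, HSP90AA1 stood at 1.729 in NHP1 (1.424 to 2.12) and 1.441 in NHP2 (1.241 to 1.679), and HSP90AB1 at 0.6408 (0.5261 to 0.7868) and 0.5245 (0.4479 to 0.6146). Where spots were assigned by their highest marker score and not by grouping, the HSP90AA1 ratio in NHP1 was 2.955. The direct UMI ratio of HSP90AA1 to HSP90AB1 puts both on 1 scale, and since transcripts of different genes may be captured unequally, only its change between regions is read. It was 4.294 in the photoreceptor layer-like region of NHP1 (3.722 to 4.97), 1.891 in the inner retina-like region (1.714 to 2.089), 4.471 in the RPE-like spots with photoreceptor markers (3.066 to 6.69), 1.008 in the choroid-like spots (0.7768 to 1.309) and 0.9469 in the sclera-like spots (0.7201 to 1.245). In NHP2 it was 2.167 in the inner retina-like region (1.912 to 2.46), 5.461 in the RPE-like spots with photoreceptor markers (4.47 to 6.721) and 0.7887 in the sclera-like spots (0.659 to 0.943). The photoreceptor-rich regions and the sclera-like spots did not overlap in either animal, and the inner retina-like regions lay between them. This ratio was chosen after the levels had been seen. Within the largest piece of NHP1 the photoreceptor layer-like ratio was 2.744 (2.148 to 3.534) and the inner retina-like one 1.886 (1.448 to 2.471), so the intervals overlapped there, while in the next piece they were 5.252 (4.351 to 6.38) and 1.905 (1.708 to 2.128).

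**Figure D3:**
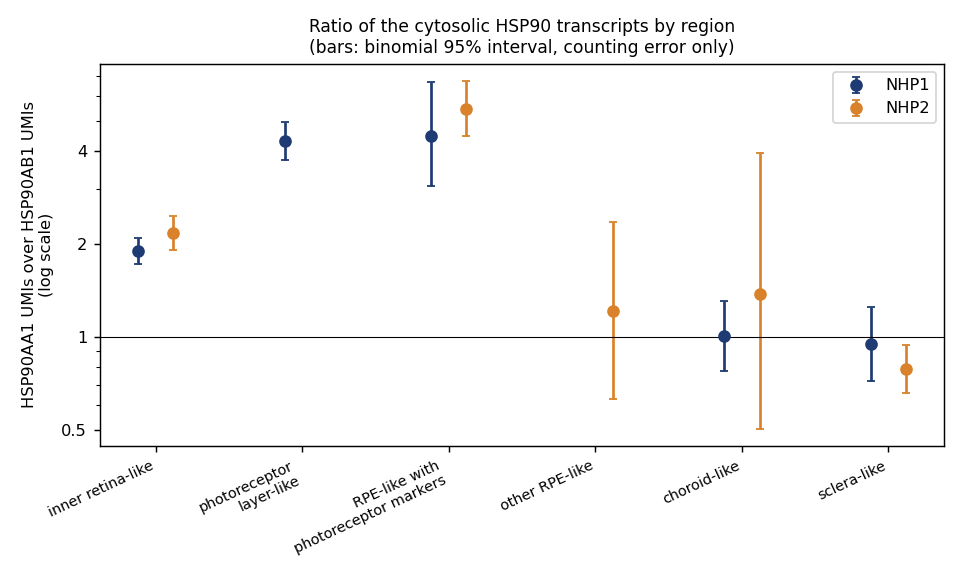
UMIs of HSP90AA1 over UMIs of HSP90AB1 in each region on a log scale, with NHP1 and NHP2 as points and binomial 95% intervals as bars (counting error only). The ratio is above 4 in the photoreceptor layer-like region and in RPE-like spots with photoreceptor markers, near 2 in the inner retina-like regions and near 1 or below in the sclera-like spots, and the intervals of the sparse other RPE-like and choroid-like spots of NHP2 are wide.

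HSP90B1, the HSP90 of the ER, had a level of 2.739 per 10000 in neural retina-like and 2.091 in sclera-like spots of NHP1, and 2.374 and 2.937 in NHP2. The ratios of 1.31 (0.8427 to 2.146) and 0.8081 (0.5716 to 1.155) both include 1. In the RPE-like spots with photoreceptor markers it was 3.207 in NHP1, from 23 UMIs, and 4.333 in NHP2, from 81.

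Among the small heat shock proteins, HSPB1, which binds unfolding proteins and actin, was high in the choroid-like and sclera-like spots. It was not high in the RPE-like spots with photoreceptor markers. In NHP1 its level was 0.7463 per 10000 in the photoreceptor layer-like region, 1.066 in the inner retina-like region, 1.255 in the RPE-like spots with photoreceptor markers, 5.54 in the choroid-like and 3.684 in the sclera-like spots, from 32, 80, 9, 74 and 37 UMIs. In NHP2 it was 0.9166 in the inner retina-like region (39 UMIs), 1.337 in the RPE-like spots with photoreceptor markers (25 UMIs) and 8.927 in the sclera-like spots (155 UMIs). Neural over sclera-like, the ratio was 0.2579 in NHP1 (0.1764 to 0.3848) and 0.1027 in NHP2 (0.07034 to 0.1467), the lowest in both animals among the members with at least 50 UMIs over both sides.
The choroid list, which holds vessel, smooth muscle and pigment cell markers, stood at 26.98 UMIs per 10000 in the sclera-like spots of NHP1 (10 of 17 markers detected, with CDH5, PLVAP, FLT1, RGS5, DCT, CA4 and EMCN at 0) and at 46.19 in those of NHP2 (13 of 17, with CDH5, PLVAP, FLT1 and DCT at 0), against 10.26 and 7.403 in neural retina-like spots. The pigment cell genes PMEL and TYRP1 and the smooth muscle gene TAGLN carried most of it, at 6.87, 11.95 and 4.48 in the sclera-like spots of NHP1 and 18.43, 14.57 and 4.723 in those of NHP2. The endothelial genes did not move together: KDR was at 0.896 against 2.544 in neural retina-like spots of NHP1 and 0.8639 against 2.068 in NHP2, CLDN5 at 0.9956 against 1.544 and 1.555 against 1.739, VWF at 0.4978 against 0.5598 and 2.707 against 0.517, and PECAM1 at 0.09956 against 0.1018 and 0.3456 against 0.09401. The myeloid list stood at 5.874 in the sclera-like and 11.15 in the choroid-like spots of NHP1 against 0.916 in neural retina-like spots, and at 6.681 in the sclera-like spots of NHP2 against 2.186, with at least 8 of its 10 markers detected in each of these. The red cell list (1 of 3 markers detected in sclera-like spots) stood at 1.095 against 0.5428 in NHP1 and 2.016 against 0.0235 in NHP2. Immediate early genes, which rise within minutes of a stimulus, stood at 2.489 and 3.571 against 1.035 and 0.7756. The part of any of these lists in the HSPB1 level was not tested. HSPB6, a small heat shock protein of muscle, had 0.4665 in neural retina-like and 0.5974 in sclera-like spots of NHP1 and 0.8226 and 1.267 in NHP2, and both ratios (0.7809, 0.3368 to 2.22, and 0.6492, 0.3703 to 1.162) include 1.

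The J-domain genes held members at both ends of the ratios. DNAJA1, the main cytosolic partner of HSPA8, had levels of 2.659 per 10000 in the photoreceptor layer-like, 3.572 in the inner retina-like and 2.29 in the sclera-like spots of NHP1, and of 4.277 in the inner retina-like and 2.189 in the sclera-like spots of NHP2. Its neural over sclera-like ratio was 1.415 (0.929 to 2.259) and 1.954 (1.372 to 2.851). DNAJB6, which keeps polyglutamine proteins from aggregating, had ratios of 1.643 (0.9623 to 3.046) and 2.254 (1.408 to 3.779).
DNAJC5, the cysteine string protein of synaptic vesicles, had 1.688 in neural retina-like and 0.7965 in sclera-like spots of NHP1 and 1.504 and 0.288 in NHP2. Its ratio was 2.119 in NHP1 (1.055 to 4.976) and 5.223 in NHP2 (2.126 to 16.63), from 8 and 5 UMIs in the sclera-like spots. The largest piece of NHP1 gave 3.721 and the rest of it 1.392.
DNAJC19, a J-domain protein of the mitochondrial inner membrane, had the highest ratio in NHP2 among the members with at least 50 UMIs over both sides, 20.4 (3.498 to 821.8), with 1 UMI in its sclera-like spots, and 0.8945 (0.4944 to 1.777) in NHP1. DNAJC25, another J-domain gene, was lower in the photoreceptor layer-like than the inner retina-like region of NHP1 (ratio 0.5122, 0.3107 to 0.8156), and DNAJC3, an ER cochaperone, higher (1.817, 1.021 to 3.241).

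DNAJB1 and HSPH1 belong to the core of the heat shock response, and their levels are given by region. DNAJB1, a cytosolic HSP70 partner, had a level of 1.433 per 10000 in neural retina-like (169 UMIs) and 0.896 in sclera-like spots (9 UMIs) of NHP1, and 0.9871 (42 UMIs) and 2.016 (35 UMIs) in NHP2. The ratio was 1.6 in NHP1 (0.8229 to 3.559) and 0.4897 in NHP2 (0.3052 to 0.79), which lie on opposite sides of 1, and the first interval includes 1. In the RPE-like spots with photoreceptor markers DNAJB1 was at 2.37 in NHP1 (17 UMIs) and 1.926 in NHP2 (36 UMIs), above the neural retina-like level in both animals. In NHP1 the counting intervals of these 2 regions overlap (1.381 to 3.795 and 1.225 to 1.666). DNAJB2, a neuronal J-domain protein, had ratios of 0.969 (0.5808 to 1.731) and 0.6399 (0.4322 to 0.9564). HSPH1, the cytosolic HSP110, had levels of 1.399 in the photoreceptor layer-like, 1.186 in the inner retina-like and 1.095 in the sclera-like spots of NHP1 and of 1.316 in the inner retina-like and 0.8063 in the sclera-like spots of NHP2, with ratios of 1.154 (0.6266 to 2.362) and 1.632 (0.8968 to 3.175).

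Both mitochondrial chaperonin genes had similar levels in the photoreceptor layer-like and inner retina-like regions of NHP1. HSPD1 had 1.982 per 10000 in the photoreceptor layer-like and 1.986 in the inner retina-like region of NHP1, against 1.195 in sclera-like spots, and 2.162 and 1.555 in the inner retina-like and sclera-like spots of NHP2. Its neural over sclera-like ratio was 1.661 (0.9331 to 3.261) and 1.39 (0.897 to 2.222). HSPE1, its lid, had 1.595 and 1.593 in neural retina-like and sclera-like spots of NHP1, and 0.9166 and 0.4607 (8 UMIs) in those of NHP2, where it had 1.872 in the RPE-like spots with photoreceptor markers (35 UMIs), against 0.9761 (7 UMIs) in those of NHP1. Both NHP2 ratios to the sclera-like spots, 1.989 (0.9164 to 4.928) and 4.063 (1.852 to 10.14), rest on fewer than the 50 UMIs needed. The NHP1 ratio of RPE-like to sclera-like spots, 0.6127 (0.2132 to 1.574), lay on the other side of 1 and also rests on fewer. In NHP1 HSPE1 had 1.446 in the photoreceptor layer-like and 1.679 in the inner retina-like region.

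The CCT subunits followed the general shift toward the retina. All 7 subunits with enough UMIs (CCT2, CCT3, CCT4, CCT5, CCT6A, CCT7 and CCT8) had a neural over sclera-like ratio above 1 in both animals, from 1.033 for CCT8 to 1.966 for CCT3 in NHP1 and from 1.335 for CCT7 to 2.117 for CCT8 in NHP2, where 68.41% of all genes tested in NHP1 and 66.76% in NHP2 were above 1. Summed over the family the ratio was 1.444 (1.167 to 1.807) and 1.561 (1.3 to 1.883), and both intervals include the all-gene medians of 1.316 and 1.428. The subunits also lay above 1 between the photoreceptor layer-like and inner retina-like regions of NHP1, from 1.118 for CCT4 to 1.273 for CCT6A, with a sum of 1.201 (1.082 to 1.331) against an all-gene median of 0.9999. TCP1, the subunit whose symbol the rule does not take, had 1.366 in neural retina-like and 1.394 in sclera-like spots of NHP1 and 1.504 and 0.4607 in NHP2.

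Counted against a ratio of at least 2 or at most 0.5, few members stood out from the sclera-like spots. In NHP1, 3 of the 44 members tested (DNAJC9, HSPA4 and DNAJC5) were higher by at least that fold in neural retina-like spots, where 24.2% of all genes tested were, and 1 (HSPB1) was lower, where 6.03% were. The higher ones rest on 3, 6 and 8 sclera-like UMIs, and the highest ratio was 2.215. HSPA4 was at 0.7864 in the inner retina-like region alone, against 0.5974 in the sclera-like spots. In NHP2, 6 of 31 (DNAJC19, DNAJC5, HSPA12A, HSPA9, DNAJB6 and CCT8) were higher, against 33.3% of genes, and 2 (HSPB1 and DNAJB1) were lower, against 13.8%. As shares of the members tested these are 6.82% and 2.27% in NHP1 and 19.4% and 6.45% in NHP2. All 4 lie below the share of all genes, which is a description with no test and holds at the main settings only. The counts of higher members moved with the count minimum, the assignment of spots and the piece of tissue, as listed under the dependence on processing. The share of all genes under those choices is not given, so it may have moved as well. Of the 31 members tested in both animals, 21 had a ratio above 1 in both (67.7%, against 56.9% of all genes), 5 below 1 in both (16.1%, against 23%) and 5 lay on opposite sides. The neural retina-like side of these ratios holds photoreceptor layer-like spots in NHP1 only. The neural retina-like spots hold far more UMIs than the sclera-like spots, so a member can pass the count minimum through the retina alone.

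**Figure D4:**
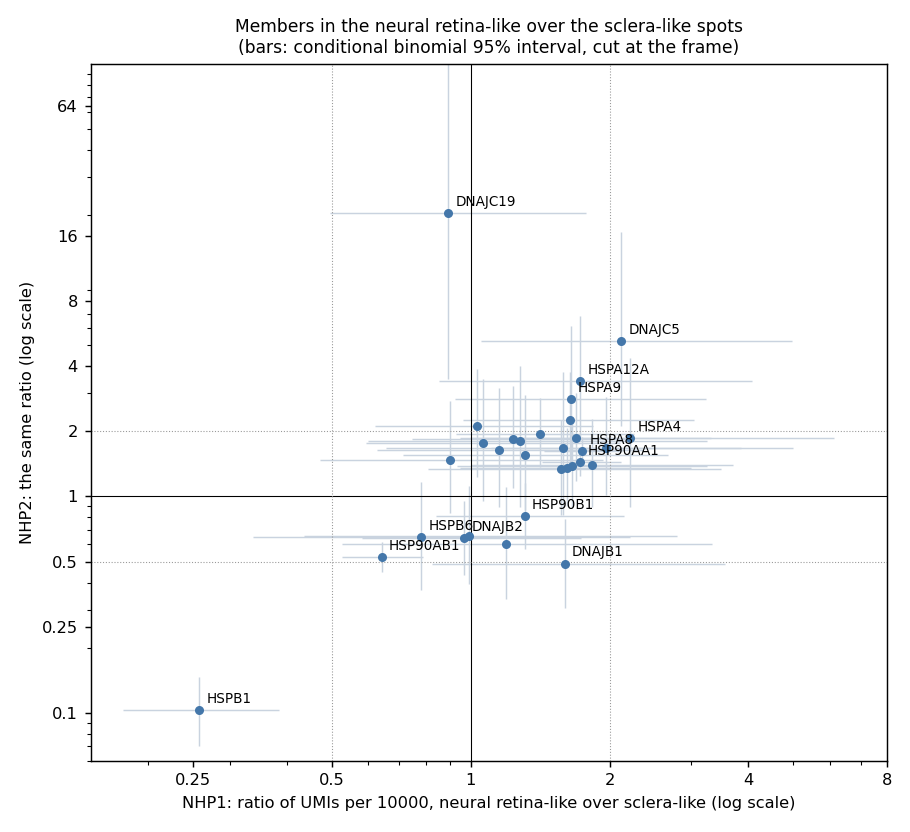
Ratio of UMIs per 10000 in neural retina-like over sclera-like spots for the 31 members tested in both animals, NHP1 across and NHP2 up, both on log scales, with conditional binomial 95% intervals as bars (cut at the frame) and dotted lines at 0.5 and 2. Above 1 in both lie 21 members, DNAJC19 is high in NHP2 alone on 1 sclera-like UMI, with HSPB1 at 0.2579 and 0.1027 far below and DNAJC5 at 2.119 and 5.223 above. Neural retina-like spots include photoreceptor layer-like ones in NHP1 only.

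Between the photoreceptor layer-like and inner retina-like regions of NHP1, 1 of 43 members (HSPA4) was higher by at least 2-fold, against 4.88% of genes, and 1 (HSPA12A) was lower, against 8.31%. The intervals of 4 members lay above 1 (HSPA4, DNAJC3, HSP90AA1 and HSPA5), against 15.9% of genes, and those of 4 below it (HSPA12A, DNAJC25, HSP90AB1 and DNAJA1), against 17.4%. Both member shares were 9.3%. In the largest piece of tissue DNAJA1 turned to 1.059, HSPA5 to 0.876 and HSP90AB1 was at 0.9386, from 90 and 88 UMIs, against 0.5771 without that piece. Summed, the members were 1.08 times as high in the photoreceptor layer-like region (1.041 to 1.121).

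**Figure D5:**
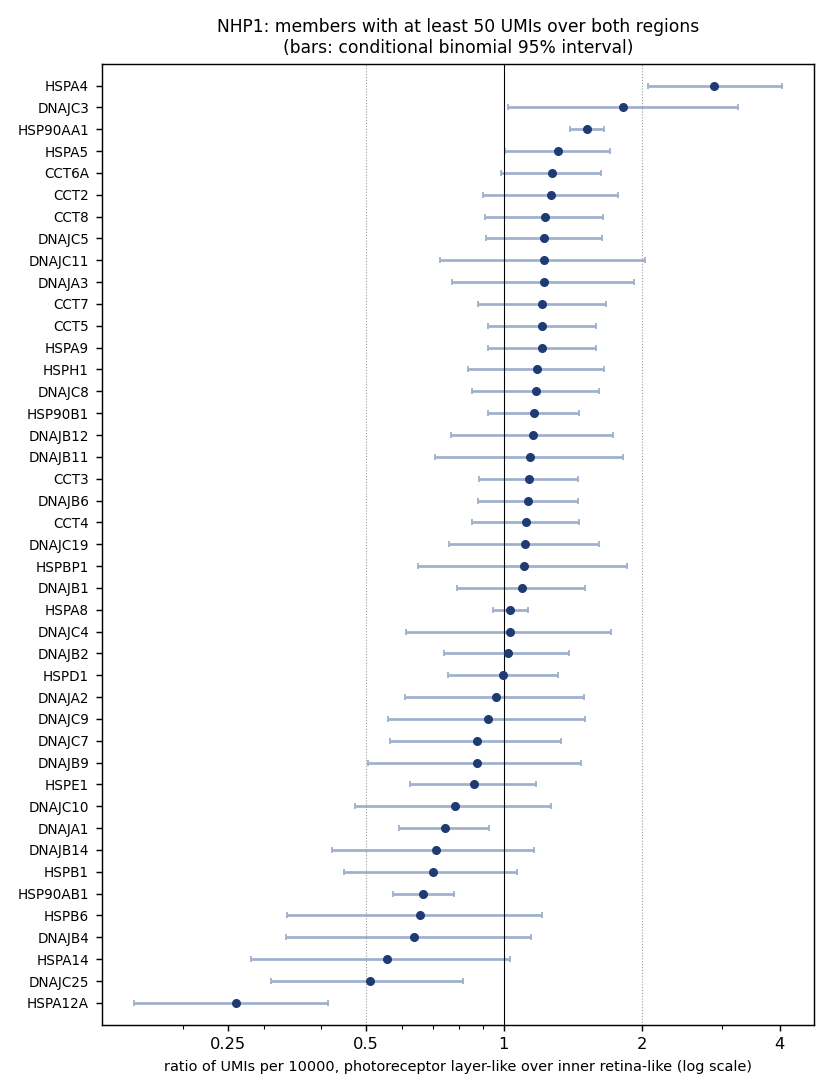
Ratio of UMIs per 10000 in the photoreceptor layer-like over the inner retina-like region of NHP1 for the 43 members with at least 50 UMIs over both, on a log scale with conditional binomial 95% intervals, and dotted lines at 0.5 and 2. HSPA4 at 2.877 and HSPA12A at 0.2606 lie at the ends, and most intervals include 1.

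In the choroid-like spots and the RPE-like spots with photoreceptor markers fewer members could be tested. Choroid-like against sclera-like spots of NHP1, 0 of 5 members passed in either direction, where 9.89% of genes were higher and 5.35% lower, and HSPB1 had the highest ratio of them, 1.504 (1 to 2.296). For RPE-like spots with photoreceptor markers against sclera-like spots of NHP1, 0 of 3 members were higher (17.2% of genes) and 1, HSP90AB1, was lower (17.6%), at 0.4214 (0.2784 to 0.6231). HSP90AA1 stood at 1.99 there (1.543 to 2.572). In NHP2, 6 of 17 were higher (34.6% of genes), DNAJC5, CCT5, HSP90AA1, CCT3, HSPA5 and HSPA8, and 2, HSP90AB1 and HSPB1, were lower (18.7%). HSP90AA1 stood at 2.604 (2.232 to 3.047), HSPA8 at 2.081 (1.78 to 2.439) and HSP90AB1 at 0.3761 (0.3001 to 0.4687).

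The animals were compared where both sections had the region. In the inner retina-like regions, 0 of 45 members differed by at least 2-fold, where 2.01% of genes were higher in NHP2 and 1.84% lower. The summed level was 1.113 times as high in NHP2 (1.073 to 1.155) and the all-gene median 1.029. At the ends lay DNAJC4, a mitochondrial J-domain gene, at 1.683 (1.076 to 2.629) and HSPE1 at 0.5458 (0.3709 to 0.7872), with 39 UMIs in NHP2 and 126 in NHP1. The further feature called HSPE1 had 189 UMIs in NHP1 and 131 in NHP2, where the one tested had 226 and 87 over tissue. The HSPE1 ratio thus reads part of the HSPE1 transcript and does not show how the copies together differ. The sclera-like spots differed in make-up between the animals. Sclera markers stood there at 309.4 per 10000 in NHP1 and 528.4 in NHP2, and photoreceptor markers at 99.86 and 28.68. The part of this in the member ratios was not tested. In these spots 1 of 7 members, HSPB1, was higher in NHP2 by at least 2-fold (12.8% of genes), at 2.423 (1.684 to 3.569), and 0 were lower (12.2%). DNAJB2 was next at 1.591 (0.8801 to 3.02), then HSP90AB1 at 1.454 (1.165 to 1.824), and HSPA8 was at 1.214 (0.9645 to 1.536). The order for HSPA8 depends on the piece of tissue. Its sclera-like level was 6.602 in the largest piece of NHP1 and 12.32 in that of NHP2, but 16.02 and 14.09 in the next pieces.

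Spots marked as off tissue held 523115 UMIs in NHP1 and 76907 in NHP2, and the members took 83.17 and 96.35 of every 10000 of them, below the 97.49 and 110.4 over tissue. Tissue over off-tissue, the summed ratio was 1.172 (1.133 to 1.213) and 1.145 (1.063 to 1.236). In NHP1, 2 of 53 members were higher over tissue by at least 2-fold (2.6% of genes) and 0 lower (0.357%), and in NHP2, 4 of 39 were higher (11.3%) and 0 lower (2.02%). The part of RNA captured away from its cells in the layer differences was not tested.

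Moran's I, a score of how alike neighbouring spots are, was deposited for 70 members in NHP1 and 66 in NHP2. Among genes with at least 50 UMIs the members' median was 0.01912 in NHP1 and 0.01363 in NHP2, and that of all genes 0.02039 and 0.01409. In NHP1 the highest values were 0.245 for HSP90AA1 and 0.1956 for HSPA8, well apart from 0.06997 for DNAJB9, an ER J-domain protein. In NHP2 they were 0.1422 for DNAJC6, which has only 3 UMIs there, 0.1311 for DNAJC5 and 0.1042 for HSPB1, with HSPA8 at 0.09408 and HSP90AA1 at 0.08289. HSPA4 and HSPA12A, at the ends of the ratio within the retina of NHP1, had no high score. HSPA4 stood at 0.02875 in NHP1 and -0.01277 in NHP2, and HSPA12A at 0.01661 and -0.008196.

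Partners of the members were read against the same background, 24.2% of genes higher and 6.03% lower in NHP1 and 33.3% and 13.8% in NHP2, and with few genes tested in each list none of these counts is read as a difference from it. Of the HSP90 and HSP70 cochaperones, 3 of 17 tested were higher and 1 lower by at least 2-fold in neural retina-like than in sclera-like spots of NHP1, and 1 of 11 was higher and 0 lower in NHP2, with summed ratios of 1.005 (0.884 to 1.146) and 1.087 (0.9769 to 1.212). PTGES3, the HSP90 cochaperone p23, had 2.875 and 2.788 per 10000 in the neural retina-like and sclera-like spots of NHP1 and 3.596 and 3.283 in NHP2, and CDC37, which brings kinases to HSP90, had 2.239 and 2.091, and 1.998 and 2.131.
Prefoldin and TCP1, which feed and form the cytosolic chaperonin, were higher for 2 of 7 in NHP1 and 3 of 5 in NHP2, with 0 lower and summed ratios of 1.268 (1.012 to 1.609) and 2.681 (2.029 to 3.598).
ER folding genes were higher for 2 of 13 and lower for 2 in NHP1, and higher for 1 of 12 and lower for 3 in NHP2, with sums of 0.786 (0.6968 to 0.8894) and 0.6199 (0.5611 to 0.6852). P4HB, the collagen prolyl hydroxylase subunit and disulphide isomerase, had 1.976 in neural retina-like and 3.684 in sclera-like spots of NHP1 and 1.34 and 3.916 in NHP2.
Of the mitochondrial folding genes, 1 of 3 and 1 of 2 were higher and 0 lower, and GRPEL1, the exchange factor of HSPA9, had 0.9245 and 0.2987 in NHP1 and 1.504 and 0.2304 in NHP2. HSF1, the heat shock factor, had 1.883 and 0.9956 in neural retina-like and sclera-like spots of NHP1 and 1.551 and 1.325 in NHP2; of the heat shock factor genes 1 of 2 was higher in NHP1 and 0 of 1 in NHP2. The alpha crystallin CRYAB, a small heat shock protein of lens and glia, had 1.936 in the photoreceptor layer-like and 3.172 in the inner retina-like region of NHP1, and 0 of the 1 tested in this list passed in either animal. None of the immediate early genes reached the 50 UMIs needed.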

How the data were processed

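Visium libraries of 1 uninjected right-eye section from each of NHP1 and NHP2 were analysed. Values per gene and spot are UMI counts as deposited, not normalized, made by the authors with Space Ranger 2.1.0 against Mmul_10 with the transgene sequences added, and spot positions with a mark for tissue. The authors also deposited Moran's I, a score per gene computed by Space Ranger, whose p-values were not used. UMI sums of the matrix over tissue spots equalled those of that table for all 13804 and 12542 genes listed.

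Tissue spots of each section were grouped with scanpy 1.11.5 and leidenalg 0.10.2 (Python 3.11.15, 10000 UMIs per spot, log1p, 2000 variable genes, 20 principal components, 15 neighbours, resolution 1). Members and listed folding genes were left out, so that regions do not rest on them. A region was named from at least 3 markers of a class, each holding at least 3 UMIs and 1.5 times its level elsewhere in that section, unless another class had more markers among the 10 leading genes. No doublet caller was run.

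UMIs were summed over the spots of a region, so deep spots weigh more. Levels are per 10000 UMIs with exact Poisson 95% intervals, and ratios have conditional binomial (Clopper-Pearson) 95% intervals, both from scipy 1.17.1. A ratio needed 50 UMIs or more in its 2 regions together, and a count of 0 was taken to allow up to 3 UMIs. Ratios and intervals were run on simulated counts with Poisson error alone. Those counts hold no spread between spots, pieces or sections, so the run does not show how the intervals fare under such spread. Of the features, 9855 have no name, and 564 of them were named from a gene table.

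The members and lists were chosen with earlier results of these data known. Named members are the 20 with the most UMIs, the 5 at each end of a ratio, of which the clearest are given, 11 genes of the heat shock response or the organelles, and the CCT subunits. DNAJB5, HSPB7, HSPA1L, DNAJC6, DNAJC14 and those with 0 UMIs were named after their values were seen. Alternatives were another resolution, regions with members kept in, the highest marker score per spot, a minimum of 200 UMIs per spot, a total without mitochondrial and the 50 most abundant genes, means over spots, the largest piece of tissue or the rest, count minimums of 20 and 200, off-tissue spots beyond 3 spacings, and UMIs per spot. Leaving out the deepest inner retina-like spots, those above the upper quartile, was added after seeing the data.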

Additional observations from a re-analysis of the deposited data

How the results depend on the processing

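The summed neural over sclera-like ratio stayed above 1 in both animals under every alternative run. In NHP1 (1.295) it was 1.421 by highest marker score, 1.439 in the largest piece, 1.121 without it and 6.742 in UMIs per spot. In NHP2 (1.17) it was 1.261 by marker score, 1.082 with a total without mitochondrial and the 50 most abundant genes, and 20.97 per spot. UMIs per spot multiply every gene by the ratio of depth, which is higher in the retina, so that lower genes turn by construction: HSP90AB1 was then 3.337 and 9.398, HSPB1 1.343 and 1.84, and DNAJB1 in NHP2 8.775. In the largest piece of NHP1 the photoreceptor over inner retina-like ratio turned for DNAJA1 (1.059, from 0.7444) and HSPA5 (0.876, from 1.312). The cause was not tested. The ratio of NHP2 to NHP1 was 1.17 at resolution 0.5 and 1.166 as a mean over spots in inner retina-like spots (1.113), and 1.37 in the largest piece and 1.039 without it in sclera-like spots (1.197). The level over tissue was 88.14 in the largest piece, 100.9 without it, 89.53 as a mean over spots and 123 with the smaller total in NHP1 (97.49), and 96.37 in the largest piece, 101.6 as a mean over spots and 136.5 with the smaller total in NHP2 (110.4). Members higher in neural retina-like spots numbered 8 at a minimum of 20 UMIs and 1 at 200 in NHP1 (3), 9 by marker score, 5 in the largest piece and 7 without it, and 13 and 0 in NHP2 (6), where resolution 0.5, marker score and leaving out the largest piece gave 10. Members lower there numbered 2 by marker score and at 20 UMIs and 0 at 200 in NHP1 (1), and 0 at 200 in NHP2 (2). Those lower in photoreceptor than inner retina-like spots (1) numbered 4 at 20 UMIs. The share of all genes under each of these choices is not given, so none of these member counts is read against a background. Of the values of named genes and the counts, 630 stayed within their spread, 87 moved and 7 turned, and of the summed values 38 stayed and 18 moved. Those that turned include the ones in UMIs per spot, which turn by construction. The largest piece of NHP2 holds no neural retina-like spots and gave no ratio there.

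With 1 section per animal, intervals cover counting error only. A sclera-like level of a member that was tested rests on 1 to 284 UMIs, so most ratios are wide there.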
